A study of Rattus norvegicus with 4 samples.

Results

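The 9 genes described here make catecholamines, load them into vesicles and break them down, and they were taken by gene symbol from a table of 32883 genes measured in the rat carotid body. They were Th (ENSRNOG00000020410), Ddc (ENSRNOG00000004327), Dbh (ENSRNOG00000006641), Pnmt (ENSRNOG00000046057), Gch1 (ENSRNOG00000011039), Slc18a1 (ENSRNOG00000011992), Slc18a2 (ENSRNOG00000008890), Maoa (ENSRNOG00000002848) and Maob (ENSRNOG00000029778), each listed once. RNA sequencing was performed on whole carotid bodies of Sprague Dawley rats at postnatal day 5, called neonates, and at day 21, called adults, with 2 libraries at each age. Per the series' design text, the organs of 6 pups or of 3 adults were pooled for each library, although the methods of the study state larger pools and more replicates, and the older animals came from litters of the same purchased dams, left to grow. Male and female animals were not separated, and day 21 is about the age of weaning. Nothing states that the libraries of an age came from separate litters, so the p-values measure only the spread between these pools.

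Catecholamines are made from tyrosine in a short chain of reactions. Tyrosine hydroxylase (Th) uses tetrahydrobiopterin (BH4), whose synthesis starts with Gch1, to make L-DOPA, which Ddc converts to dopamine. Dbh, inside the vesicle, turns dopamine into noradrenaline, and Pnmt turns noradrenaline into adrenaline. Slc18a1 (VMAT1) and Slc18a2 (VMAT2) carry the amines into vesicles in exchange for protons, and the monoamine oxidases Maoa and Maob on the outer mitochondrial membrane break them down. Glomus cells, the oxygen-sensing cells of the carotid body, are known for their dopamine content, while the sympathetic fibres that reach the organ, and neurons scattered in it, use noradrenaline.

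Total estimated counts ran from 36286191 to 39476110 per library, and a count of 3 in a library corresponded to between 0.0736 and 0.0845 CPM, that is counts per 1000000 counts of the library. CPM values below were scaled between libraries by TMM, a scaling that takes most genes as equal, and they are not corrected for gene length, so levels are compared between ages and not between genes. The choice of scaling mattered here. Dividing by library size alone moved the median log2 difference of all 13843 genes tested from -0.00 to -0.25 and the share of higher calls among all calls from 50.1% to 30.1%. Mitochondrial genes took 18.7% and 15.6% of the neonatal counts and 9.06% and 9.08% of the adult counts, and their part in this shift was not tested. The neonatal replicate 1 library stood apart in parathyroid hormone, Pth, at 1773 CPM against 208 CPM in neonatal replicate 2 and 0 in both adult libraries. Summed haemoglobin and Alas2 CPM was 12912 and 7338 in neonates and 2810 and 2452 in adults. Of the 13 glomus cell markers examined, all were detected in every library.

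Of the 9 genes, 8 passed the filter of 1 CPM in 2 libraries and were tested with edgeR's quasi-likelihood test, and Pnmt did not. Both directions were seen: 3 genes, Dbh, Gch1 and Slc18a1, passed the threshold (adjusted p under 0.05) with a higher level in neonates, against a background of 31.2% of all genes tested, and 2, Th and Maob, were lower, against a background of 31.1%. Ddc, Slc18a2 and Maoa did not pass. Dbh was the only gene past 2-fold, where 7.68% of all genes were higher and 13.2% lower. The median log2 difference of the 8 genes was 0.09, beside -0.00 over all genes. The libraries of the ages did not overlap for 6 of the 8, which is also what 83.0% of all genes showed. In whole-organ RNA a smaller number of cells of a type and less RNA in each cell cannot be told apart.

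**Figure D1:**
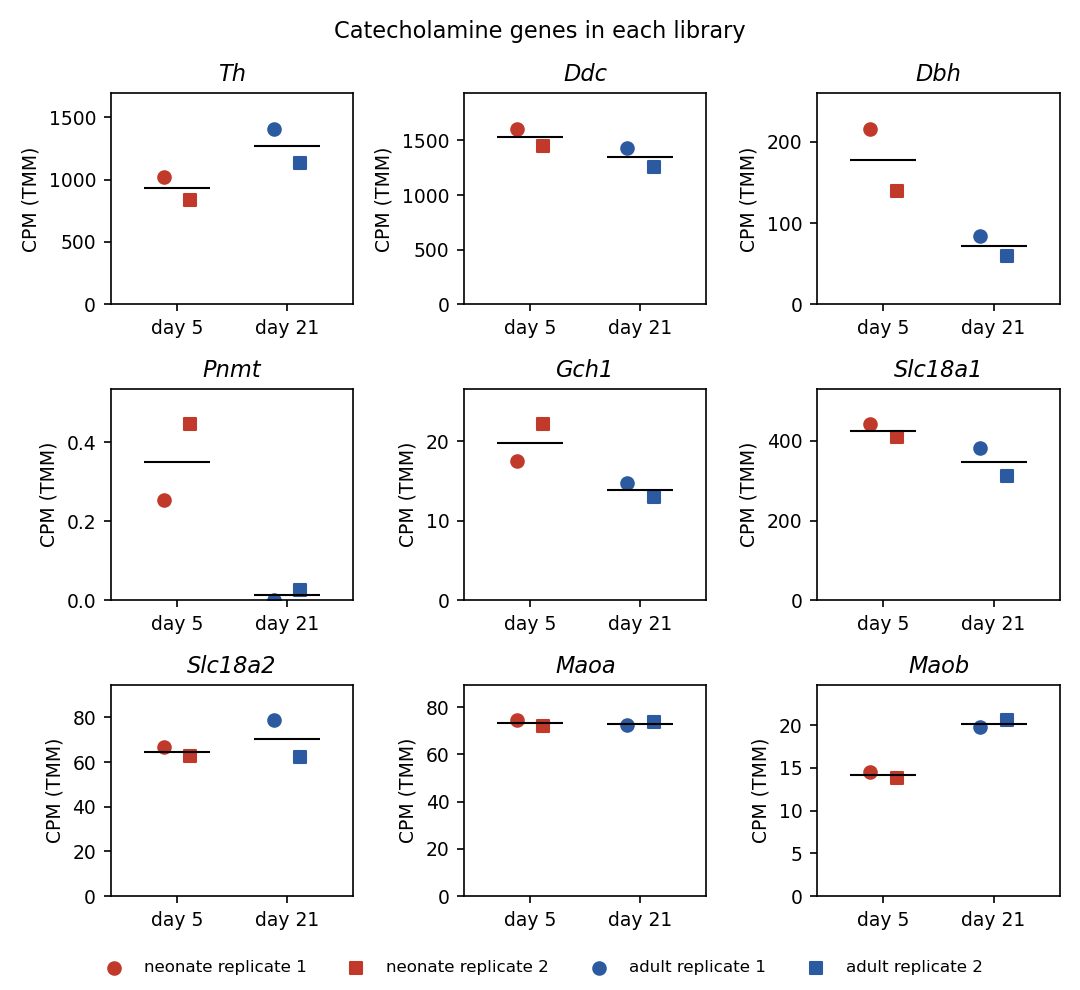
CPM after TMM scaling (y axes from 0, a separate scale for each gene) for the 9 genes at day 5 and day 21; each point is a library and each bar is the mean of 2 libraries. The 2 neonatal Dbh libraries, at 216 and 139 CPM, lie above the adult ones at 83.8 and 59.4 CPM, and the 4 Maoa libraries lie between 71.8 and 74.5 CPM.

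RefSeq's GRCr8 promoter table, which holds 250 bases before and 50 after each start, had entries for 7 of the 9 genes, with 3 windows for Ddc. Slc18a1 and Pnmt had no entry. The stretches before the start of the 4 genes with an entry that differed between ages are shown, so that the elements described next can be read in place. Capitals mark TGACGTCA (the cAMP response element, CRE), TGCGTCA (a CRE-like element), TGANTCA (an AP-1 site), CAATTA (a homeodomain core) and GGGCGG (a GC box), searched on both strands. Th lies at chr1:207508277-207508468 on the minus strand, Dbh at chr3:30886078-30886312 on the plus strand, Gch1 at chr15:22917413-22917662 on the minus strand and Maob at chrX:8490155-8490404 on the plus strand. Each stretch starts 250 bases before the start and is written 5′ to 3′ along the gene, and those of Th and Dbh end where another RefSeq transcript of the gene begins.
Th: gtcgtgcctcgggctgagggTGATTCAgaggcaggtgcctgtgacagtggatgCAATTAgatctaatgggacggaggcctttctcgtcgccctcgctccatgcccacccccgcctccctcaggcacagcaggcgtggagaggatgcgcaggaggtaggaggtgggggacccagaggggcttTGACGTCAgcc
Dbh: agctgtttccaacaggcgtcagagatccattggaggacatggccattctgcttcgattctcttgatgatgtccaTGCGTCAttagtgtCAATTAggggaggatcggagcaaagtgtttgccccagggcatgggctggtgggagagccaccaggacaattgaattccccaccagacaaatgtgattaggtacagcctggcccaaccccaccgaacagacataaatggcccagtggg
Gch1: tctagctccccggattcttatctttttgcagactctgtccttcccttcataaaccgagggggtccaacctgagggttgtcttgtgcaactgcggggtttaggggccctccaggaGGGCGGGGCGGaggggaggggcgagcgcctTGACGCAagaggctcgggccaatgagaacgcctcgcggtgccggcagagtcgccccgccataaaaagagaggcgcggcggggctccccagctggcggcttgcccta
Maob: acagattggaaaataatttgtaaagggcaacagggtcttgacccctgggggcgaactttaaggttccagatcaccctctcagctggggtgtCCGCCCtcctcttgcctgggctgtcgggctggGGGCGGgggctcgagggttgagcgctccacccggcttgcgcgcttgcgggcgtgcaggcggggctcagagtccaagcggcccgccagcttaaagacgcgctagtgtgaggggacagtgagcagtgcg

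The Th stretch held the full CRE at -69 to -62, an AP-1 match at -230 to -224 and a homeodomain core at -197 to -192. The Dbh stretch had no full CRE but held the CRE-like element at -176 to -170, a few bases from a homeodomain core at -162 to -157. Gch1 carried the same CRE-like letters on the opposite strand at -106 to -100, with 2 overlapping GC boxes. Outside the printed genes, Slc18a2 held a full CRE at -52 to -45. Ddc held an AP-1 match in 1 of its 3 windows, and Maoa and Maob held 4 and 2 GC boxes with none of the other 4 marked motifs. Of 33469 promoter windows in the table, 1.83% held the full CRE, 1.90% the CRE-like element, 7.33% the AP-1 site, 8.20% the homeodomain core and 33.1% a GC box. The hypoxia-response core GCGTG, present in 29.7% of windows, was found in those of Th, Slc18a2 and Maob, and ACGTG, in 19.3%, in none of the 7 genes. The CRE stood in the window of a gene that was lower in neonates (Th) and of a gene that did not pass (Slc18a2). These matches describe letters and not binding.

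Th, the gate to the whole chain, was lower in neonates. It gave 1020 and 837 CPM in the neonatal libraries and 1407 and 1135 CPM in the adult ones. Both neonatal values lay below both adult values, though adult replicate 2 was nearer to neonatal replicate 1 than to adult replicate 1. The log2 difference was -0.45 ± 0.13 (SE, n = 2 per age; edgeR adjusted p = 0.016), that is a 1.37-fold higher level in adults. The call was lost without neonatal replicate 2 (-0.30, edgeR adjusted p = 0.097) and without adult replicate 1 (-0.32, edgeR adjusted p = 0.0713).

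Gch1 and 4 of the 7 other genes that make or recycle the cofactor of Th were higher in neonates. Gch1, the entry enzyme of tetrahydrobiopterin synthesis, gave 17.5 and 22.1 CPM in neonates and 14.7 and 13.0 CPM in adults, with no overlap between ages, and the difference was 0.52 ± 0.15 (log2, SE; edgeR adjusted p = 0.014). It no longer passed with library size alone (0.28, edgeR adjusted p = 0.15), without neonatal replicate 2 (0.36, adjusted p = 0.084) or without adult replicate 2 (0.40, adjusted p = 0.093). The 7 other cofactor genes were all tested, none was lower, and their median log2 difference was 0.54. Among the higher ones were Pts at 0.64 and Spr at 0.54, which complete the synthesis, and Pcbd1 at 0.60, which regenerates the cofactor. Pcbd1 gave 71.5 and 60.4 CPM in neonates and 46.1 and 41.0 CPM in adults. Qdpr, the main recycling reductase (-0.06), Pcbd2 (-0.05) and Gchfr, the feedback inhibitor of Gch1 (-0.07), did not pass. With library size alone, 2 of the 7 were higher and 1 lower, and Pts no longer passed without adult replicate 2 (0.42, edgeR adjusted p = 0.10).

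Ddc, which makes dopamine from L-DOPA, gave 1608 and 1449 CPM in neonates and 1433 and 1261 CPM in adults. The ages did not overlap, but neonatal replicate 2 and adult replicate 1 were nearly equal, and the log2 difference of 0.18 ± 0.11 (SE) did not pass (edgeR adjusted p = 0.17) and took the opposite sign with library size alone (-0.06). Against Th in the same library, which needs no scaling between libraries, Ddc gave 158 and 173 reads per 100 Th reads in neonates and 102 and 111 in adults. This ratio was 1.55-fold higher in neonates, with p = 0.333 in an exact two-sided permutation test, the smallest value that 2 against 2 libraries can give. Among 5 genes of precursor supply, the amino acid transporter Slc7a5 was higher in neonates (0.51), Slc7a8 (-0.37) and the aromatic amino acid carrier Slc16a10 (-1.0) were lower, and Slc3a2 (0.00) did not pass. The Slc7a5 call was lost with library size alone (0.26, adjusted p = 0.18) and without neonatal replicate 2 (0.46, adjusted p = 0.056) or adult replicate 2 (0.27, adjusted p = 0.17). That of Slc7a8 was lost in 5 alternative fits, with the smallest difference, -0.13 (adjusted p = 0.29), without adult replicate 1.

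Dbh, which makes noradrenaline, showed the largest difference of the 8 tested genes. Its levels were 216 and 139 CPM in neonates and 83.8 and 59.4 CPM in adults. Every neonatal library was above every adult one, and the replicates of each age also lay apart. The log2 difference was 1.31 ± 0.21 (SE, n = 2 per age; edgeR adjusted p = 0.00058), a 2.48-fold higher level in neonates. Over all alternatives it stayed between 0.97 and 1.61, with an adjusted p of at most 0.0023.

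Set against Th, the shift in Dbh was larger. Dbh gave 21.2 and 16.6 reads per 100 Th reads in the neonatal libraries and 5.96 and 5.23 in the adult ones. The ratio was 3.36-fold higher in neonates and did not overlap between ages (exact two-sided permutation p = 0.333, the smallest possible). Per 1000 reads of the 13 glomus cell markers, Dbh gave 28.3 and 21.0 in neonates and 10.1 and 8.52 in adults, whereas Th gave 134 and 126 in neonates and 169 and 163 in adults. Against the glomus markers, then, the replicates of Th lay closer together than in CPM, and the opposite directions of Dbh and Th remained. The marker sum includes Chga, at 1725 and 793 CPM in neonatal replicates 1 and 2. Its part in the closeness of the neonatal Th replicates was not tested. The summed glomus markers themselves gave 7630 and 6626 CPM in neonates and 8307 and 6973 CPM in adults, so this denominator overlapped between ages.

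**Figure D2:**
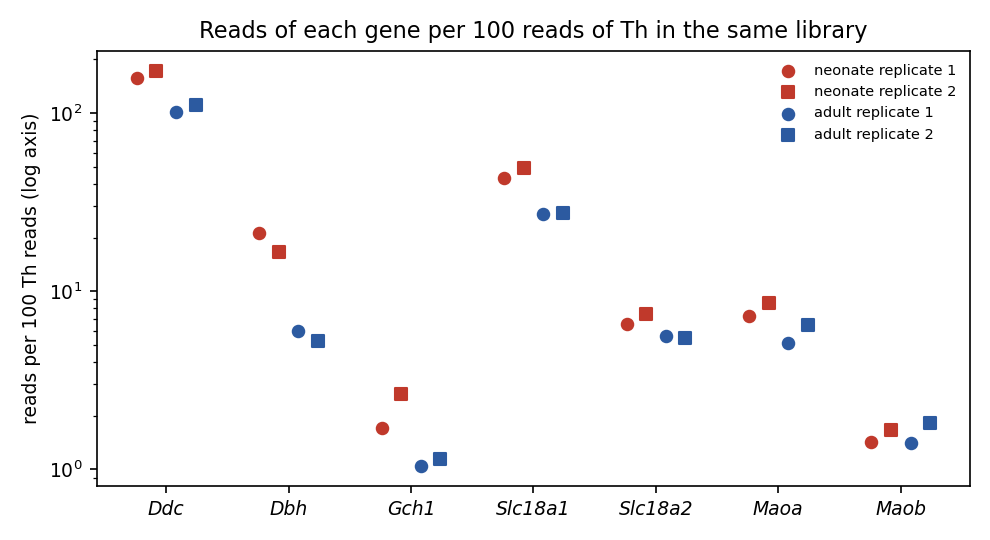
Reads of each gene per 100 Th reads in the same library (y axis, log scale, not corrected for gene length), with neonatal libraries in red and adult libraries in blue; circles are replicate 1 and squares replicate 2. Dbh lies at 21.2 and 16.6 in neonates and at 5.96 and 5.23 in adults, and Maob, at 1.41 to 1.81, is the only gene plotted whose ages overlap.

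Most markers of the sympathetic neuron list moved with Dbh. Of 10 such markers, 8 were higher in neonates and 1 lower, beside 31.2% and 31.1% of all genes tested. Their median log2 difference was 1.39, and their summed level was 1735 and 1469 CPM in neonates and 1037 and 807 CPM in adults. Which of these genes are particular to noradrenergic neurons was not tested. Npy, the peptide stored with noradrenaline, gave 169 and 125 CPM in neonates and 38.5 and 34.9 CPM in adults (2.0). The neurofilaments Nefm (1.73) and Nefl (1.36) and the peptidase Ecel1 (1.57) were also higher, as were by less the list's most abundant genes, the intermediate filament Prph (0.61) and Stmn2 (0.59), and Eya1 was lower (-1.78). No marker of the list was at 0. The part of nerve content in the Dbh result was not tested.

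Slc6a2, the noradrenaline transporter of the nerve terminal, was higher in neonates like Dbh, though its adult libraries lay closer together. It gave 177 and 118 CPM in neonates and 49.5 and 44.5 CPM in adults, a log2 difference of 1.65 ± 0.17 (SE; edgeR adjusted p = 5.0e-05). In ratios chosen after their values were seen, Dbh gave 1.22 and 1.18 reads per Slc6a2 read in neonates and 1.69 and 1.34 in adults, 1.28 and 1.12 reads per Npy read in neonates and 2.18 and 1.70 in adults, and 12.5 and 9.47 reads per 100 reads of the sympathetic neuron list in neonates and 8.09 and 7.36 in adults. Relative to Slc6a2 and to Npy, then, Dbh was lower in neonates, and relative to the whole list it was higher. In each case the ages did not overlap and no test was run. Most reads of the list came from Prph (0.61) and Stmn2 (0.59), whose differences were smaller than that of Dbh. Mast cell markers also moved this way, with 4 of 6 tested genes higher and a summed level of 87.7 and 91.4 CPM in neonates and 33.7 and 26.6 CPM in adults, and their part in the Dbh result was not tested either.

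Dbh needs electrons and copper. Of 5 genes of electron transfer and copper handling listed beside it, all tested, 3 were lower and 2 higher in neonates. Their median log2 difference was -0.63, and the copper genes are not particular to Dbh. Cyb561, the vesicle cytochrome that passes electrons to Dbh from ascorbate, gave 197 and 162 CPM in neonates and 678 and 553 CPM in adults. It was lower in neonates by 1.78 ± 0.13 on the log2 scale (edgeR adjusted p = 1.1e-05). There were 0.911 and 1.16 Cyb561 reads per Dbh read in neonates and 8.08 and 9.31 in adults, a ratio chosen after its values were seen. Atp7a, the pump that loads copper into the secretory pathway, gave 8.11 and 6.68 CPM in neonates and 41.8 and 40.5 CPM in adults (-2.48), and the copper importer Slc31a1 was lower too (-0.63). The copper chaperones Atox1 (0.46) and Ccs (0.29) were higher in neonates, but with library size alone none of the 5 genes was, and the Ccs call was also lost without neonatal replicate 1 (0.23, adjusted p = 0.085) and without adult replicate 1 (0.28, adjusted p = 0.12) or 2 (0.25, adjusted p = 0.17). Cyb561 is also found in other secretory cells, and Atp7a in nearly all cells.

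**Figure D3:**
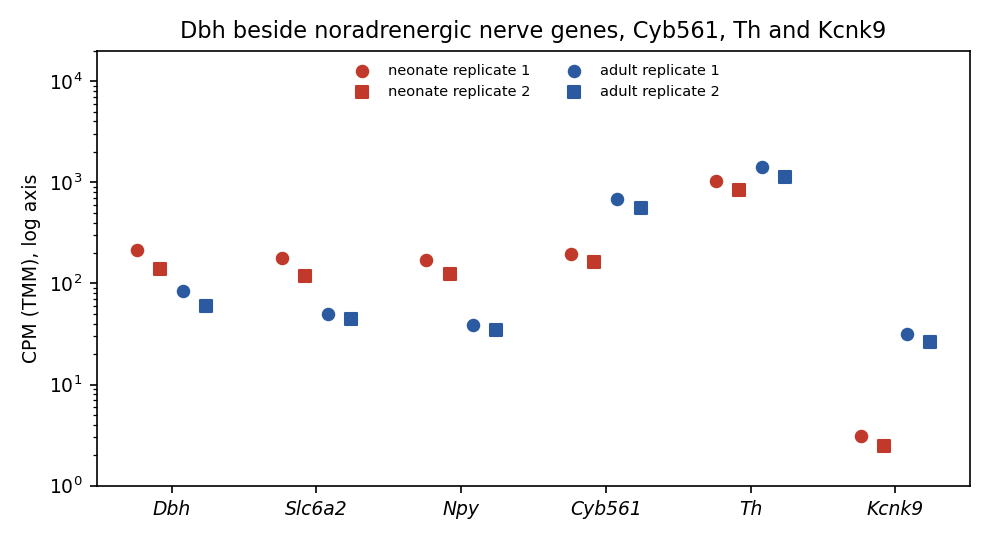
CPM after TMM scaling (y axis, log scale) of Dbh, the noradrenergic nerve genes Slc6a2 and Npy, Cyb561, Th and the glomus cell potassium channel Kcnk9; neonatal libraries are red, adult libraries blue, circles replicate 1 and squares replicate 2. The first 3 genes are higher in neonates and the last 3 lower, with Cyb561 at 197 and 162 CPM in neonates and 678 and 553 CPM in adults.

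Pnmt, the adrenaline-making enzyme, was close to the limit of detection. It had 9 and 16 counts in the neonatal libraries and 0 and 1 in the adult ones. The pooled counts of 25 and 1 gave a 28.1-fold ratio with an exact 95% interval from 4.61 to 1156, which covers counting error only. With no filter on low counts, edgeR gave a log2 difference of 4.46 (adjusted p = 0.038 over 19411 genes), a fitted size that depends on the handling of the adult library without a count.

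Of the vesicle carriers, Slc18a1 was higher in neonates and Slc18a2 did not pass. Slc18a1, the carrier best known from adrenal chromaffin cells, gave 441 and 411 CPM in neonates and 383 and 311 CPM in adults, a difference of 0.30 ± 0.11 (log2, SE; edgeR adjusted p = 0.040). It did not reach 2-fold, and the call was also lost in 5 of the other alternatives, among them library size alone (0.05, adjusted p = 0.70) and the fit without adult replicate 2 (0.13, adjusted p = 0.36). Slc18a2, the carrier of central and sympathetic neurons, gave 66.7 and 62.5 CPM in neonates and 78.7 and 62.1 CPM in adults, with adult replicate 2 below both neonatal libraries. Its difference was -0.12 ± 0.12 (log2, SE; edgeR adjusted p = 0.38), and it passed only with library size alone (-0.37, adjusted p = 0.022). Within a library the ratio of the carriers was tight, at 6.61 and 6.57 Slc18a1 reads per Slc18a2 read in neonates and 4.86 and 5.01 in adults, a 1.33-fold difference (exact two-sided permutation p = 0.333, the smallest possible). Slc18a2 was thus not called higher in neonates, where 8 of the 10 sympathetic markers were.

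The proton pump that powers both carriers had members moving each way. Of its 17 genes, all tested, 4 were higher and 4 lower in neonates, with a median of 0.07. Atp6v0e2, a membrane subunit isoform, gave 17.8 and 18.9 CPM in neonates and 51.9 and 50.7 CPM in adults (-1.48), and the catalytic subunit Atp6v1a gave 159 and 151 CPM in neonates and 270 and 247 CPM in adults (-0.74). Atp6v1b2 (-0.33) and Atp6v0e1 (-0.41) were also lower. Atp6v1g2 (0.67), Atp6v1g1 (0.47), Atp6v0c, which forms the proton-carrying ring (0.41), and Atp6v1f (0.41) were higher. The calls of Atp6v1b2, Atp6v0c and Atp6v1g2 were each lost in at least 2 of the 4 fits that left out a library. With library size alone the counts were 1 higher and 8 lower. The pump also acidifies lysosomes and other compartments in all cells.

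The monoamine oxidases, which are neighbours on the X chromosome, differed from each other. Maoa gave 74.5 and 71.8 CPM in neonates and 72.3 and 73.8 CPM in adults, so the ages overlapped and the log2 difference was 0.00 ± 0.08 (SE; edgeR adjusted p = 0.98). With library size alone it was -0.24 (adjusted p = 0.032), close to the shift of all genes under that scaling. Maob gave 14.5 and 13.9 CPM in neonates and 19.8 and 20.6 CPM in adults, with a gap between ages several times the spread within them. Its difference was -0.51 ± 0.12 (log2, SE; edgeR adjusted p = 0.0052), a 1.42-fold higher level in adults. It did not reach the 2-fold threshold, and at the adjusted p alone it passed with each tool, scaling, filter and left-out library run, with an adjusted p of at most 0.032. Maoa gave 5.14 and 5.18 reads per Maob read in neonates and 3.66 and 3.58 in adults, a 1.43-fold difference (exact two-sided permutation p = 0.333, the smallest possible). Maob is known from glia, serotonin neurons and other cells, and these libraries do not show which cells it came from.

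Further breakdown enzymes were mostly lower in neonates. Of 9 genes of methylation, aldehyde and sulfate metabolism, all tested, 1 was higher and 5 lower, with a median of -0.39. The aldehyde dehydrogenases that oxidise the products of the monoamine oxidases were lower, with Aldh2 at 28.0 and 31.7 CPM in neonates and 46.8 and 48.6 CPM in adults (-0.68), Aldh3a2 at -0.57 and Aldh1a1 at -2.30. Sult1a1, a sulfotransferase, gave 18.8 and 34.5 CPM in neonates and 96.9 and 102.8 CPM in adults (-1.91), and Mat2a, which makes the methyl donor, was lower (-0.39) but not without neonatal replicate 2 (-0.29, adjusted p = 0.051). Akr1a1 (0.17), Akr1b1 (0.02) and Ahcy (-0.19) did not pass. Of 6 uptake carriers only 3 could be tested: Slc6a2, described above, Slc29a4 (0.13, not passed) and the extraneuronal carrier Slc22a3. Slc22a3 gave 0.366 and 0.223 CPM in neonates and 2.75 and 4.49 CPM in adults, and since it passed the filter on low counts only through the adult libraries, its call supports nothing. The dopamine transporter Slc6a3 had at most 0.0845 CPM, the value of 3 counts.

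**Figure D4:**
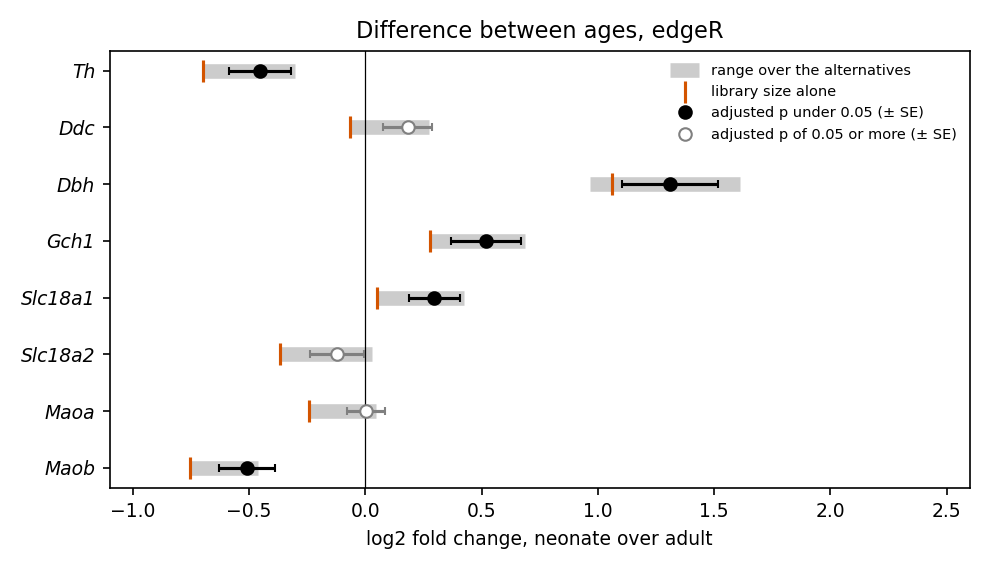
Log2 fold change of neonates over adults (x axis) for the 8 tested genes; points are the edgeR estimates with SE bars, filled where the adjusted p was under 0.05, grey bands span the alternatives and orange ticks show scaling by library size alone. Dbh, at 1.31, lies farthest from 0 on the higher side, and Maob (-0.51) and Th (-0.45) on the lower side.

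Regulators of the Th protein and of the chain's transcription did not share a direction. Among 7 kinases, a phosphatase subunit and adapters acting on the Th protein, 1 was higher (Camk2b, 0.62) and 2 were lower. The lower genes include Camk2a, at 0.254 and 0.696 CPM in neonates and 1.62 and 1.23 CPM in adults, which also passed the filter only through the adult libraries. Of 12 transcription factors tested, 4 were higher and 4 lower. Gata3, a sympathetic factor that parathyroid cells also use, gave 12.8 and 5.73 CPM in neonates and 3.63 and 2.87 CPM in adults (1.51), the highest value being in the library rich in Pth. Tfap2b (1.32), Gata2 (0.54) and Nr4a2 (0.47) were higher, and Epas1, a hypoxia-inducible factor prominent in glomus cells (-0.84), and Nr4a1 (-0.69) were lower. Without neonatal replicate 1 the Gata3 difference was 0.83, and without adult replicate 2 Nr4a2 no longer passed (0.31, adjusted p = 0.083). Phox2a (-0.09), Hand2 (0.38), Isl1 (-0.18) and Egr1 (-0.14) did not pass. Across the pathway lists without the 9 genes, 19 of 67 tested genes were higher and 21 lower, beside the backgrounds of 31.2% and 31.1%.

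**Figure D5:**
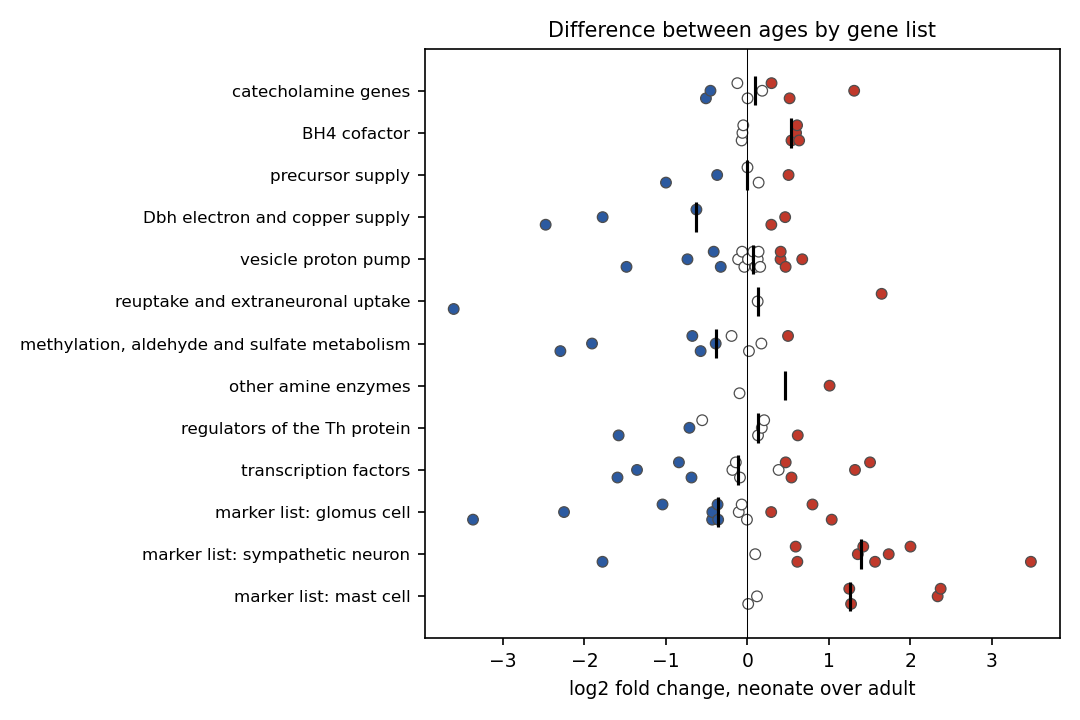
Log2 fold change of neonates over adults (x axis) of each tested gene, by list (y axis); filled points had an adjusted p under 0.05, red if higher and blue if lower in neonates, and black bars are list medians. The cofactor list (median 0.54) and the sympathetic neuron markers (1.39) lie mostly to the right. The list of Dbh electron and copper supply reaches -2.48 on the left.

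Glomus cell markers, listed beside Th because these cells are rich in Th, were mixed, with 3 of 13 higher and 7 lower in neonates. The potassium channel Kcnk9 gave 3.10 and 2.48 CPM in neonates and 31.3 and 26.3 CPM in adults (-3.37), Olr59 was lower (-1.04) and the granin Scg2 was lower (-0.43). The adenosine receptor Adora2a was higher (1.04). The granin Chga gave 1725 and 793 CPM in neonates and 786 and 661 CPM in adults (0.80) and no longer passed without neonatal replicate 1 (0.14, edgeR adjusted p = 0.37), the library rich in Pth. Drd2, the dopamine receptor of these cells, gave 52.9 and 54.3 CPM in neonates and 75.5 and 61.9 CPM in adults (-0.36), and it did not pass without adult replicate 1 (-0.24, adjusted p = 0.15). Of the marker lists of other cells, those of sustentacular and Schwann cells had 2 of 7 tested genes higher and 3 lower, endothelial cells 0 of 4 higher and 1 lower, smooth muscle and pericytes 1 of 5 higher and 3 lower, and fibroblasts 0 of 4 higher and 3 lower. Adipocyte markers had 1 of 4 higher and 3 lower, macrophage markers 0 of 5 higher and 4 lower, thyroid markers 0 of 2 higher and 1 lower, and of 4 skeletal muscle markers none passed. The share of all counts taken by the 9 genes was 0.311% and 0.281% in neonates and 0.377% and 0.321% in adults. Within that share, Th took 29.5% and 27.8% in neonates and 40.3% and 38.7% in adults, and Dbh took 6.25% and 4.63% in neonates and 2.40% and 2.02% in adults.

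The genes whose profile over the 4 libraries lay closest to each tested gene were found from the distance between mean-centred log2 CPM profiles. For Dbh these were Kcnip4, a potassium channel partner, at a distance of 0.122, the mast cell tryptase Tpsb2 at 0.149 and LOC691921 at 0.157. For Th they were AC128207.1 (0.0722), Zfp78 (0.0895) and Lgals3bp (0.0936), for Maob Acss3 (0.0103), Sphk2 (0.0170) and Mfge8 (0.0179), and for Gch1 Rasl10a (0.0282), Hspbap1 (0.0441) and the clock gene Cry1 (0.0566). For Ddc the closest was Usp11 (0.0183), for Slc18a1 Cnga3 (0.0326), for Slc18a2 AABR07039229.2 (0.0245) and for Maoa Zfp422 (0.00783). None of these was another gene of the 9: the nearest such pair, Ddc and Slc18a1, were 0.149 apart, Ddc ranking 219 among all genes by closeness to Slc18a1, and the gene of the 9 nearest to Dbh was Gch1, at 1.07. With 4 points that share libraries and depth, these distances are descriptions.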

How the data were processed

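Polyadenylated RNA, selected from total RNA of pooled carotid bodies of day 5 and day 21 rats, was sequenced, with 2 libraries per age in the deposited table. The authors deposited a table of estimated counts per gene. The submitters' processing notes name Salmon 1.5.2 and the Rnor 6.0 build, and the study describes trimming and alignment of reads before quantification and TMM normalisation in edgeR. The strand setting of the counting is not given in the sources used here. Fractional counts were rounded to whole numbers. No column belonged to another sample. As a check for a library deposited in duplicate, the counts of the 2 replicates of an age were compared and differed by more than counting noise (chi-square per degree of freedom 32.6 in neonates and 15.4 in adults).

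Genes that RefSeq's GRCr8 table lists as noncoding (636) were removed, and a gene was kept if 2 or more libraries reached 1 CPM. The remaining 13843 genes were tested with edgeR 4.0.16 (R 4.3.3) by the quasi-likelihood test on TMM-scaled counts, neonate over adult, without covariates, and p-values were adjusted by Benjamini-Hochberg over all of them. Passing means an adjusted p under 0.05. Total counts per library lay between 36286191 and 39476110. The procedure was tested on simulated data. Ratios of reads within a library were compared by exact two-sided permutation tests (scipy 1.17.1), which cannot go below 0.333.

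The catecholamine genes and all lists were chosen with earlier results of these data known, so their counts are descriptions. All 9 genes were named, pathway genes with their values, of the marker lists only genes with the most counts or that passed, and for each tested gene up to 3 genes of the nearest profile (prior count 2). Col1a2, Insm1 and Pecam1 were not analysed here, and some genes of the lists are counted but not reported here by name. Alternatives were DESeq2 1.42.0, limma-voom (limma 3.58.1), other scalings and filters, a fold change of at least 2, a replicate block and leaving out each library.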

Additional observations from a re-analysis of the deposited data

How the results depend on the processing

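With library size alone, 1 catecholamine gene was higher in neonates in place of 3 and 4 were lower in place of 2. Over the other pathway lists, 8 genes were higher in place of 19 and 32 lower in place of 21. Requiring a fold change of at least 2 left 1 catecholamine gene higher and 0 lower, 4 pathway genes higher and 9 lower, and 12 marker genes lower in place of 26. Leaving out each library in turn gave 1 to 3 catecholamine genes higher and 1 to 2 lower, and 12 to 18 pathway genes higher, the lowest without adult replicate 2. The sign changed for Ddc with library size alone (-0.064), for Slc18a2 without adult replicate 1 (0.029, in a range of -0.31 to 0.029 over the fits that left out a library) and for Maoa with library size alone (-0.24), with no filter on low counts (-0.023), with a mean of at least 5 CPM (-0.034) and in 3 of the 4 fits that left out a library (a range of -0.042 to 0.045 over the 4). The cause was not tested. With no filter on low counts Slc18a1 no longer passed and Pnmt did. Of 104 log2 differences of the catecholamine genes over the alternatives, 85 kept direction and side of the threshold, 10 no longer passed, 1 newly passed and 8 changed sign. Of 733 for the 57 other genes followed, 688 kept both and 45 no longer passed.

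Across 13843 genes, the differences between replicates 1 and 2 had a correlation of -0.015 between ages, so replicate numbers showed no shared shift. This cannot show whether libraries of the same number shared a litter or batch. A replicate block left 3 catecholamine genes higher and 2 lower, with 20 pathway genes higher and 22 lower. Most sympathetic neuron markers and the haemoglobin genes moved with age. With 2 libraries per age, the parts of age, nerve content and blood content cannot be told apart.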

Other observations

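The companion enzymes of other amines were sparse. Tph1, which starts serotonin synthesis, gave 1.29 and 1.28 CPM in neonates and 1.64 and 1.11 CPM in adults and did not pass (-0.10). Hdc, the histamine-making enzyme, gave 2.96 and 3.26 CPM in neonates and 1.5 and 1.59 CPM in adults, a log2 difference of 1.01 ± 0.31 (SE; edgeR adjusted p = 0.020), and no longer passed with library size alone (0.77, adjusted p = 0.0619) or without either adult library (0.94 and 1.03). The mast cell genes Cma1 and Cpa3 were higher in neonates too. Cma1 gave 35.4 and 35.3 CPM in neonates and 7.29 and 6.35 CPM in adults. Cpa3 gave 18.5 and 25.1 CPM in neonates and 5.20 and 3.43 CPM in adults. These had the largest differences of the mast cell list, of whose 6 tested genes 4 were higher and 2 passed in neither direction. Over all genes tested, 31.2% were higher. Chat, the enzyme that makes acetylcholine, stayed at 0.585 to 0.908 CPM and was not tested.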
